A study of Mus musculus with 9 samples.

Results

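The MAP kinase phosphatases are the dual-specificity phosphatases that carry a MAP kinase binding domain, and the 10 genes that encode the active enzymes of this family in the mouse were examined here. These genes, Dusp1, Dusp2, Dusp4, Dusp5, Dusp6, Dusp7, Dusp8, Dusp9, Dusp10 and Dusp16, were found in the deposited count table by their Ensembl identifiers, 10 of 48526 genes. The RNA-seq experiment followed neural stem cells (NSCs) of the subependymal zone (SEZ) of adult wild-type mice, 2 to 4 months old (strain C57BL/6 in the labels and C57BL/6J in the study's methods), which had been expanded as neurospheres with EGF and FGF. Undifferentiated NSCs (0 h) were compared with cells 1 h and 6 h after induction of differentiation, for which they were kept on an adhesive substrate (Matrigel) without EGF and with FGF. For early time points in fixed cells the methods describe seeding a day ahead in medium with both growth factors. Whether this also held for the RNA-seq cultures, and on which substrate the cells of 0 h were, is not given in the sources used here. There were 3 replicates per time point, whose numbers recur across the time points. The labels do not say whether the replicates came from separate mice or cultures, so p-values measure only the spread between these samples, which may be technical.

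A MAP kinase is switched on when a kinase above it phosphorylates a threonine and a tyrosine in its activation loop, and a MAP kinase phosphatase switches it off by removing both phosphates. The family is usually divided by location and substrate. Dusp1, Dusp2, Dusp4 and Dusp5 encode nuclear enzymes whose genes are induced by growth factors and stress, Dusp6, Dusp7 and Dusp9 encode cytoplasmic enzymes that prefer the kinase ERK, and Dusp8, Dusp10 and Dusp16 encode enzymes that act mainly on the stress kinases JNK and p38. Several of these genes are themselves transcribed in response to ERK activity and close a negative feedback loop, of which Dusp6 in cells exposed to FGF is the textbook case. EGF and FGF, which keep SEZ NSCs dividing in culture, both signal through RAS, RAF, MEK and ERK.

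The total count per library was between 65871454 and 105592597, and mitochondrial genes took between 2.86% and 3.58% of it. Expression is given as CPM (counts scaled to the library size, corrected by the TMM method) for comparisons between time points. It is given as TPM (counts per exon length, scaled to the same total in every library) for comparisons between genes. Means are followed by ± SD over the 3 replicates of a time point. All 9 NSC markers, among them Nes, Sox2 and Vim, had a mean of at least 1 CPM at every time point and summed to between 5995 and 9079 CPM per library. Of 6 microglia and macrophage markers none reached a mean of 1 CPM, and their sum was between 0.122 and 0.570 CPM. The 6 endothelial and mural markers summed to between 3.58 and 6.62 CPM at 0 h, 3.59 and 5.33 at 1 h and 3.04 and 8.76 at 6 h, with Cldn5 at 0 in all libraries of 0 h and 1 h. The 5 ependymal markers, most of them Foxj1 by level, summed to between 46.5 and 87.3 CPM at 0 h, 51.4 and 92.2 at 1 h and 37.8 and 59.9 at 6 h. The 6 oligodendrocyte markers, mostly Cnp, summed to between 49.0 and 84.7 CPM, 52.0 and 88.0, and 66.3 and 118 at these times. The 8 neuroblast and neuron markers summed to between 1004 and 1785 CPM, most of it Map2. Single markers changed between 0 h and 6 h in the edgeR fit with the replicate block described with the tests below. The mural marker Pdgfrb rose from 0.165 ± 0.192 to 2.12 ± 2.47 CPM, and the endothelial and mural markers Kdr and Rgs5 fell. Of the ependymal markers 0 rose and 2 fell, of the oligodendrocyte markers 2 rose and 1 fell, of the neuroblast and neuron markers 3 rose and 0 fell, of the NSC markers 2 rose and 3 fell, and the 1 tested microglia and macrophage marker, Csf1r, fell. In this fit 17.4% of all tested genes rose and 17.5% fell between 0 h and 6 h. Without the block (1.46% and 0.955%) the NSC marker Msi1 rose and no other of these markers passed the test. The part of these markers in the results at 6 h was not tested. In these bulk samples fewer cells of a type and less RNA per cell cannot be told apart.

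All 10 genes passed the expression filter and were among the 18858 genes tested. Their counts differed widely, from between 16 and 43 per library for Dusp2 and between 17 and 56 for Dusp9 to between 16548 and 36906 for Dusp6. In the GENCODE M21 annotation of GRCm38, Dusp6 lies on chromosome 10 (99263231 to 99267489), Dusp7 on chromosome 9 (106368632 to 106375724), Dusp5 on chromosome 19 (53529109 to 53542431) and Dusp16 on chromosome 6 (134715468 to 134792625). Dusp4 lies on chromosome 8 (34807297 to 34819894), Dusp1 on chromosome 17 (26505590 to 26562128), Dusp10 on chromosome 1 (184013302 to 184075636), Dusp8 on chromosome 7 (142079490 to 142095843), Dusp2 on chromosome 2 (127336159 to 127338376) and Dusp9 on chromosome X (73639419 to 73643514). The exons of 3 of these genes overlap a gene on the other strand, and the strand setting of the counting is not given in the sources used here. Dusp1 shares 11 exon bases with Ergic1, which had between 9834 and 16823 counts per library. Dusp8 shares 66 with Gm32786, which had 0 to 1, and Dusp5 shares 547 with AC137853.2, which was not analysed here. Reads of both genes of a pair may be mixed.

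The start regions of Dusp5, Dusp16, Dusp6 and Dusp7 are shown. They were picked because the first pair moved in the same directions, up and then down, while Dusp7 moved up and Dusp6 down. Dusp1, Dusp9 and Dusp10, whose start regions are not printed, also moved up and then down in every replicate. The bases upstream of the RefSeq start (GRCm38.p6) are printed on the strand of the gene, and capitals mark letters of a searched motif. They cover chr19:53528895-53529108 (plus strand) for Dusp5, where the printed run stops at an annotated exon. They also cover chr6:134792629-134792878 (minus strand) for Dusp16, chr10:99262981-99263230 (plus strand) for Dusp6 and chr9:106368382-106368631 (plus strand) for Dusp7.
Dusp5: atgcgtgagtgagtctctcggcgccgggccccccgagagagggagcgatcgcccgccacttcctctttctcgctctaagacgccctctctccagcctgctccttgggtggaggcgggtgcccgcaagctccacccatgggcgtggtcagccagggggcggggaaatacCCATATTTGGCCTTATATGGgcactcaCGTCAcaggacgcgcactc
Dusp16: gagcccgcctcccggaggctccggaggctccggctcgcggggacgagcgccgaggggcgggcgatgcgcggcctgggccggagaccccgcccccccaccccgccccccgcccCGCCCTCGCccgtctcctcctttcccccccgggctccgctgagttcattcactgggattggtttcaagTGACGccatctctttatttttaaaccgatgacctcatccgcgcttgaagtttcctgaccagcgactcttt
Dusp6: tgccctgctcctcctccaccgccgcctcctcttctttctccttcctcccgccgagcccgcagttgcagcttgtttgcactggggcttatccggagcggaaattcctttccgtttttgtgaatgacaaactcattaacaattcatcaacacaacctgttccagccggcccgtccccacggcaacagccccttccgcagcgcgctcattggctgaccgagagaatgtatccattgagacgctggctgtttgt
Dusp7: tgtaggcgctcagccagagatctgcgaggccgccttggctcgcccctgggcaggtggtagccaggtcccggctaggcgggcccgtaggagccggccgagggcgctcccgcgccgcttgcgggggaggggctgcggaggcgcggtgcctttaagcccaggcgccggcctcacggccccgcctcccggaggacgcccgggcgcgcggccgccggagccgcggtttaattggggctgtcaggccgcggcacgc
The motifs searched on both strands were the cAMP response element (CRE) TGACGTCA, its core TGACG, the AP-1 site TGANTCA, the ETS site CCGGAAG, the EGR site GCGNGGGCG, the CArG box and the TATA box TATAAA, where a CRE also counts as a CRE core. Dusp5 holds a pair of adjacent CArG boxes, the letters bound by serum response factor, from -82 to -73 and from -72 to -63 relative to the start, and a CRE core. A CArG box is present in 1.47% of the 32851 upstream windows of the RefSeq table. Dusp16 holds an EGR site, present in 4.7% of windows, and a CRE core, present in 17.8%, and the windows of Dusp6 and Dusp7 hold none of the 7 motifs. Among the other members in the table, Dusp8 holds 2 CREs and Dusp1 holds 1 (1.55% of windows), and Dusp2 holds an EGR site. Dusp10 holds none of the 7 motifs. The table held no window for Dusp4 and Dusp9. These matches describe the letters of the windows and are not evidence of binding.

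Per summed exon length, Dusp6 was by far the most abundant member. At 0 h it had 469 ± 73.9 TPM (SD, n = 3), and it made up 73.6% ± 4.43 of the summed TPM of the 10 genes, between 69.0% and 77.8% in the 3 libraries. At some distance Dusp4 (39.7 ± 19.2 TPM), Dusp16 (34.8 ± 5.08), Dusp7 (31.5 ± 3.39) and Dusp10 (29.1 ± 3.55) followed, and the ranges of neighbours among these 4 overlapped. Dusp1 (16.0 ± 4.05 TPM) and Dusp5 (10.1 ± 3.18) came next and overlapped with each other. Dusp8 (4.798 ± 1.13 TPM) stood apart from both its neighbours, and Dusp2 (0.717 ± 0.268) and Dusp9 (0.520 ± 0.269) were the lowest and overlapped with each other. The cytoplasmic ERK phosphatases together held 78.6% ± 4.76 of the family's TPM at 0 h, the nuclear inducible ones 10.5% ± 3.97 and the JNK and p38 phosphatases 10.9% ± 1.22.

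At the later time points Dusp6 stayed first, and the order of the 5 lowest genes was the same. At 6 h Dusp7 was second with 55.7 ± 4.34 TPM (SD, n = 3), apart from Dusp6 above it and from Dusp16 (29.5 ± 3.30 TPM) below it, while at 0 h its range had overlapped with those of its neighbours. Its share of the family's TPM was 4.99% ± 0.605 at 0 h, 7.59% ± 1.26 at 1 h and 11.2% ± 1.37 at 6 h, and the ranges of the 3 time points did not overlap. The share of Dusp6 was 63.4% ± 6.18 at 1 h and 66.1% ± 3.08 at 6 h, and its range at 0 h overlapped with those of both later time points. Shares of one total are tied to each other, so they were not tested.

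**Figure D1:**
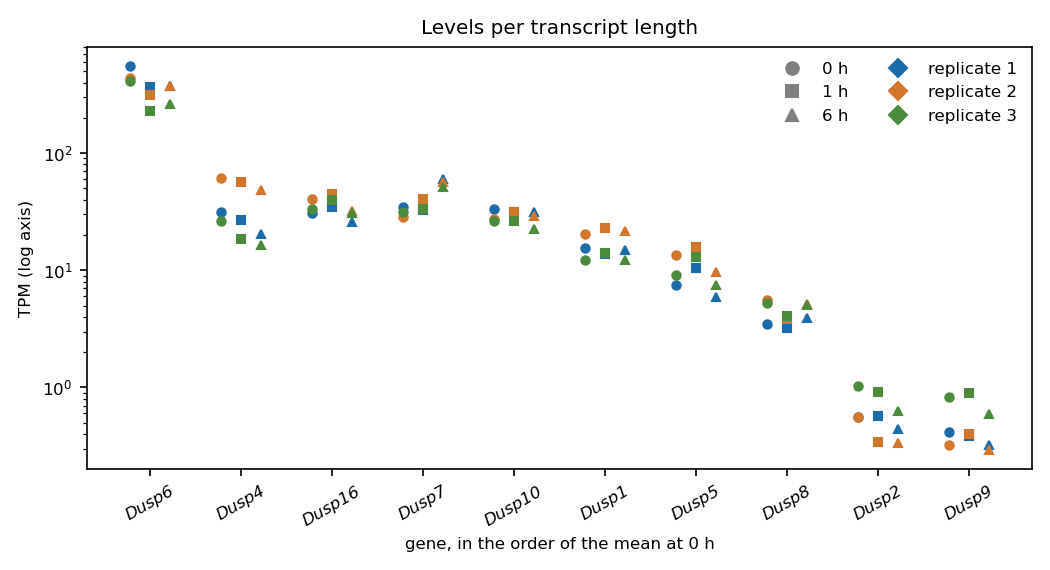
TPM per library (log axis) of the 10 MAP kinase phosphatase genes, in the order of their mean at 0 h, with shapes for the time points and colours for the replicates. Dusp6 lies above all other members in every library, and Dusp2 and Dusp9 lie at the bottom with means between 0.405 and 0.717 TPM.

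**Figure D2:**
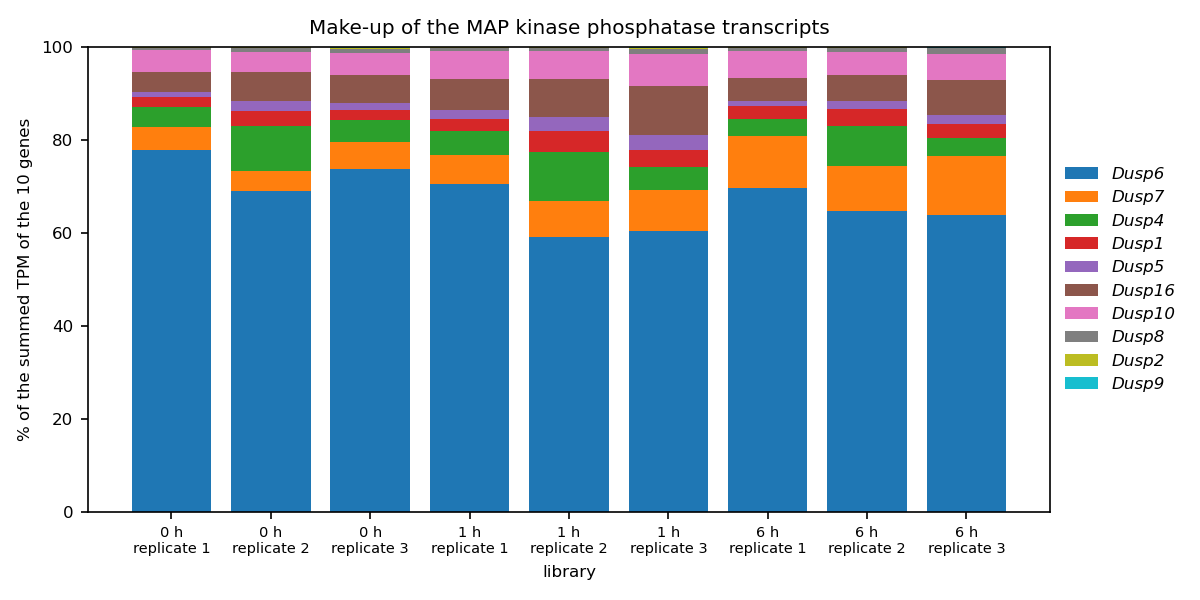
Share (%) of each gene in the summed TPM of the 10 genes, as 1 stacked bar per library. Dusp6 takes between 59.2% and 77.8% of a bar, and the share of Dusp7 lies between 4.41% and 5.62% at 0 h and between 9.80% and 12.5% at 6 h.

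Changes between time points were tested by the quasi-likelihood method of edgeR, with the time point alone in the model. A gene was called at an adjusted p under 0.05 (Benjamini-Hochberg over all tested genes). Same-numbered libraries resembled each other, so a second fit, in which the replicate number enters as a block, is given wherever it changes a call. At 1 h against 0 h, 0 of the 10 genes passed the test without the block, where 0.0424% of all tested genes were called, all of them higher. At an unadjusted p under 0.05 by edgeR, 2 members were higher and 0 lower, beside 276 and 459 of all 18858 tested genes. DESeq2 called 0 members, with 4 at an unadjusted p under 0.05, beside 757 of all 21297 genes with an adjusted p. With the block, Dusp5 and Dusp16 rose and Dusp6 fell at 1 h, 3 of 10 where 3.51% of all genes were called (1.36% higher and 2.14% lower).

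Between 0 h and 6 h, 1 member, Dusp7, rose without the block (2.42% of all genes called, 1.46% higher and 0.955% lower). With it Dusp7 rose and Dusp4, Dusp5, Dusp6 and Dusp16 fell, 5 of 10 where 34.9% of all genes were called (17.4% higher and 17.5% lower). Between 1 h and 6 h, 1 member, Dusp16, fell without the block (2.14% of all genes called, 1.48% higher and 0.663% lower). With it Dusp7 rose and Dusp1, Dusp4, Dusp5, Dusp10 and Dusp16 fell, 6 of 10 where 35.6% of all genes were called (18% higher and 17.5% lower). Against these backgrounds the counts of members at 6 h are not a result about the family. DESeq2 without the block called 0, 1 and 3 members in the 3 comparisons (0.338%, 8.76% and 8.34% of all genes). With the block it called 4 of 8 with an adjusted p at 1 h, and 5 and 6 of 10 (7.16%, 33.1% and 34.8% of all genes).

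The direction was the same in 3 of 3 replicates for most members. From 0 h to 1 h, 6 members were higher and 2 lower in every replicate (20.8% and 22.4% of all tested genes), and from 0 h to 6 h, 1 was higher and 6 were lower (31.5% and 31.7%). From 1 h to 6 h, 1 was higher and 7 were lower (29.4% and 28.2%). The median log2 fold change of the 10 genes without the block was 0.17 at 1 h and -0.37 at 6 h, both against 0 h. The medians over all tested genes were 0.0012 and -0.0031, and the medians of their absolute log2 fold changes were 0.111 and 0.202.

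**Figure D3:**
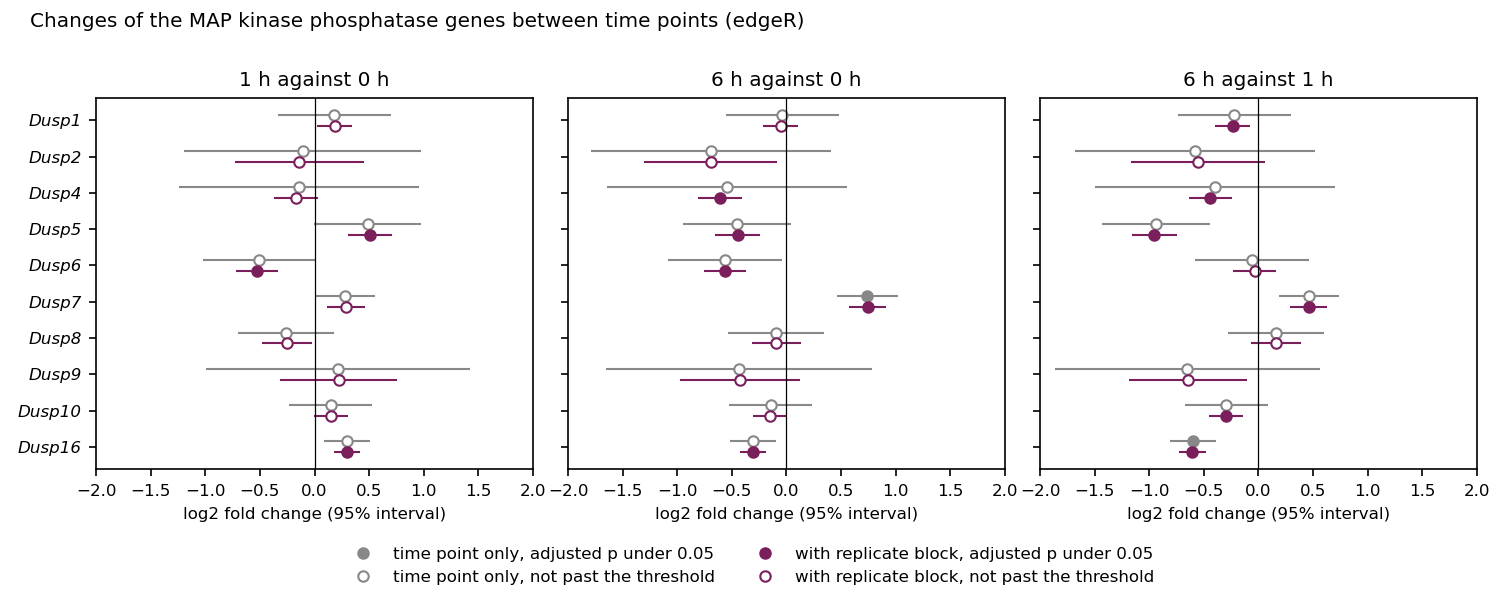
Log2 fold change of each gene between the time points (x axis) with its 95% interval, from edgeR without the replicate block (grey) and with it (purple). Filled points have an adjusted p under 0.05, namely Dusp7 at 6 h against 0 h and Dusp16 at 6 h against 1 h in grey, and 3, 5 and 6 genes in purple in the 3 comparisons.

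Dusp7, which encodes a cytoplasmic phosphatase of ERK, rose over the 6 h. It had 34.7, 25.0 and 31.5 CPM in replicates 1, 2 and 3 at 0 h, 37.6, 37.0 and 35.9 CPM at 1 h, and 55.4, 49.7 and 47.3 CPM at 6 h. All libraries of a later time point were above all those of the earlier ones, so that none of the 3 ranges overlapped. The mean was 30.4 ± 4.94 CPM at 0 h and 50.8 ± 4.18 CPM at 6 h (n = 3). This 1.67-fold rise, 0.74 on the log2 scale with a standard error of 0.12, had an adjusted p of 0.0266 by edgeR. The change at 6 h was past the threshold with the block too (0.75, standard error 0.08, adjusted p = 1.5e-05 by edgeR), and the log2 ratios within replicates 1, 2 and 3 were 0.68, 0.99 and 0.58. The step from 1 h to 6 h was 0.46 on the log2 scale (adjusted p = 0.0954 by edgeR, and 0.000608 with the block). The step from 0 h to 1 h was 0.28 (adjusted p = 1.00 by edgeR, and 0.0707 with the block). When each of the 9 libraries was omitted in turn, the call without the block survived only the omission of 1 h replicate 2 or of 1 h replicate 3 (2 of 9). Elsewhere its adjusted p reached 0.113 by edgeR. With the block it survived 9 of 9 omissions.

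Dusp6, which encodes the ERK phosphatase of the cytoplasm best known as an FGF feedback gene, fell with the block. It had 510.2, 365 and 387 CPM in replicates 1, 2 and 3 at 0 h, 393, 266 and 230.1 CPM at 1 h, and 323, 306 and 225.0 CPM at 6 h. Each replicate was lower at 1 h than at 0 h, but replicate 1 at 1 h lay above replicates 2 and 3 at 0 h, so the ranges of these time points overlapped. All libraries of 6 h were below all those of 0 h. The means were 420 ± 78.5, 296 ± 85.9 and 285 ± 52.3 CPM in the order of the time points. With the block the log2 fold change was -0.53 at 1 h (standard error 0.09, adjusted p = 0.00584 by edgeR) and -0.56 at 6 h (standard error 0.09, adjusted p = 0.000389 by edgeR). Between 1 h and 6 h it was -0.03 with the block (95% interval from -0.23 to 0.16, adjusted p = 0.802 by edgeR). Without the block the log2 fold changes from 0 h were -0.50 at 1 h and -0.56 at 6 h, with adjusted p-values of 1.00 and 0.242 by edgeR. The call at 1 h with the block was lost when 0 h replicate 3 was omitted (adjusted p = 0.0614 by edgeR) and survived the other 8 omissions of a library. The call at 6 h survived 9 of 9.

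Dusp9, the other cytoplasmic ERK phosphatase gene of the family, had few reads. It had 0.332, 0.230 and 0.673 CPM at 0 h, 0.359, 0.296 and 0.779 CPM at 1 h, and 0.244, 0.209 and 0.448 CPM at 6 h in replicates 1, 2 and 3. Replicate 3 was the highest at each time point, and all 3 ranges overlapped. The value was higher at 1 h and lower at 6 h than at 0 h in 3 of 3 replicates, with log2 fold changes of 0.21 and -0.44, and none of its comparisons was past the threshold in either fit.

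Dusp5, which encodes a nuclear phosphatase specific for ERK, rose at 1 h and fell below its starting level at 6 h in the fit with the block. It had 5.43, 8.87 and 6.79 CPM in replicates 1, 2 and 3 at 0 h, 8.88, 10.5 and 10.2 CPM at 1 h, and 4.09, 6.26 and 5.06 CPM at 6 h. The range at 1 h was above that at 0 h by a narrow margin and above that at 6 h by a wider one, while the ranges at 0 h and 6 h overlapped. The mean went from 7.03 ± 1.73 CPM to 9.86 ± 0.871 CPM and 5.13 ± 1.09 CPM. With the block Dusp5 rose by 0.51 on the log2 scale at 1 h (standard error 0.09, adjusted p = 0.0101 by edgeR). Its log2 change was -0.45 between 0 h and 6 h (standard error 0.10, adjusted p = 0.00295 by edgeR) and -0.95 between 1 h and 6 h (standard error 0.09, adjusted p = 1.0e-05 by edgeR). Without the block the same changes were 0.49, -0.45 and -0.94, with adjusted p-values of 1.00, 0.326 and 0.0681 by edgeR. The call at 1 h with the block was lost when replicate 1 of 0 h or of 1 h, or replicate 3 of 0 h, was omitted, where the adjusted p reached 0.0945 by edgeR. Both calls at 6 h survived 9 of 9 omissions.

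Dusp4 encodes a nuclear phosphatase of ERK, JNK and p38. Its replicate means over the time points had the widest range of the 10 genes (1.30 on the log2 scale, and 1.26 in Dusp9). It had 25.2, 44.6 and 21.6 CPM in replicates 1, 2 and 3 at 0 h, 25.0, 41.6 and 16.3 CPM at 1 h, and 15.3, 35.1 and 12.4 CPM at 6 h. Replicate 2 was above the other replicates at each time point, so that replicate 2 at 6 h lay above replicates 1 and 3 at 0 h and all ranges overlapped. Within each replicate the value at 6 h was the lowest, with log2 ratios against 0 h of -0.71, -0.35 and -0.81. With the block Dusp4 fell by 0.61 on the log2 scale between 0 h and 6 h (standard error 0.09, adjusted p = 0.000244 by edgeR). It fell by 0.44 between 1 h and 6 h (standard error 0.09, adjusted p = 0.00251 by edgeR), and both calls survived 9 of 9 omissions of a library. Without the block the log2 fold change at 6 h against 0 h was -0.54, with a standard error of 0.48 and an adjusted p of 0.646 by edgeR.

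Dusp1, the gene of the nuclear phosphatase first described as an immediate early gene, did not pass the test against 0 h at either later time point. It had 15.04, 17.7 and 12.2 CPM in replicates 1, 2 and 3 at 0 h, 15.5, 20.7 and 14.8 CPM at 1 h, and 13.6, 19.0 and 11.2 CPM at 6 h, and the ranges of all time points overlapped. Its log2 fold change at 1 h was 0.18 with the block (95% interval from 0.02 to 0.35, adjusted p = 0.213 by edgeR), and at 6 h against 0 h -0.05 (95% interval from -0.21 to 0.11, adjusted p = 0.636 by edgeR). Between 1 h and 6 h it fell by 0.24 (standard error with the block 0.07, adjusted p = 0.0255 by edgeR). This call survived 5 of 9 omissions of a library and was lost without replicates 1 and 3 of 6 h and replicates 2 and 3 of 1 h, each omitted alone, where its adjusted p reached 0.129 by edgeR. Without the block that change was -0.22, with an adjusted p of 0.702 by edgeR.

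Dusp2, which encodes a nuclear phosphatase known mainly from immune cells, had few reads. It had 0.332, 0.297 and 0.616 CPM at 0 h, 0.391, 0.186 and 0.584 CPM at 1 h, and 0.244, 0.176 and 0.345 CPM at 6 h in replicates 1, 2 and 3. Replicate 3 was the highest throughout, and the ranges overlapped. Each replicate was lower at 6 h than at 0 h, and the log2 change with the block was -0.69 (95% interval from -1.31 to -0.08, adjusted p = 0.0742 by edgeR).

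Dusp16, which encodes a phosphatase of JNK and p38, moved in the directions of Dusp5 but from a level that varied little between replicates. It had 70.4, 83.1 and 77.7 CPM in replicates 1, 2 and 3 at 0 h, 92.3, 93.2 and 98.7 CPM at 1 h, and 55.6, 65.4 and 66.3 CPM at 6 h. All libraries of 1 h were above all those of 0 h, and all of 6 h were below all of 0 h. The mean went from 77.1 ± 6.36 CPM to 94.8 ± 3.43 CPM and 62.4 ± 5.97 CPM. Between 1 h and 6 h it fell by 0.60 on the log2 scale (standard error 0.09, adjusted p = 0.0215 by edgeR, and 5.5e-06 with the block). With the block it rose at 1 h (0.30, standard error 0.06, adjusted p = 0.00996 by edgeR) and fell between 0 h and 6 h (-0.31, standard error 0.06, adjusted p = 0.000991 by edgeR). Without the block these changes of 0.30 and -0.30 had adjusted p-values of 0.946 and 0.131 by edgeR. The call from 1 h to 6 h survived, without the block, the omission of replicate 1 or of replicate 2 of 0 h (2 of 9), and elsewhere its adjusted p reached 0.0839 by edgeR. With the block it survived 9 of 9. The call at 1 h with the block was lost without the same libraries as that of Dusp5, where its adjusted p reached 0.1004 by edgeR.

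Dusp10, which encodes another phosphatase of p38 and JNK, had 29.7, 22.2 and 24.1 CPM in replicates 1, 2 and 3 at 0 h, 32.8, 25.9 and 25.6 CPM at 1 h, and 26.5, 23.3 and 19.0 CPM at 6 h. The ranges of all time points overlapped, and each replicate was highest at 1 h. With the block it fell by 0.29 on the log2 scale from 1 h to 6 h (standard error 0.07, adjusted p = 0.00643 by edgeR), and this call survived 9 of 9 omissions of a library. Without the block the change was -0.29 with an adjusted p of 0.415 by edgeR. Against 0 h its log2 fold changes with the block were 0.15 at 1 h (adjusted p = 0.300 by edgeR) and -0.15 at 6 h (adjusted p = 0.135 by edgeR).

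Dusp8, whose product acts on JNK and p38 and is known from brain and heart, had 5.05, 7.20 and 7.69 CPM at 0 h, 5.31, 5.05 and 6.26 CPM at 1 h, and 5.23, 6.53 and 6.84 CPM at 6 h in replicates 1, 2 and 3. The ranges of all time points overlapped and the replicates did not move in one direction. The log2 fold change with the block was -0.25 at 1 h (95% interval from -0.48 to -0.03, adjusted p = 0.219 by edgeR) and -0.09 at 6 h against 0 h (95% interval from -0.32 to 0.13, adjusted p = 0.529 by edgeR).

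**Figure D4:**
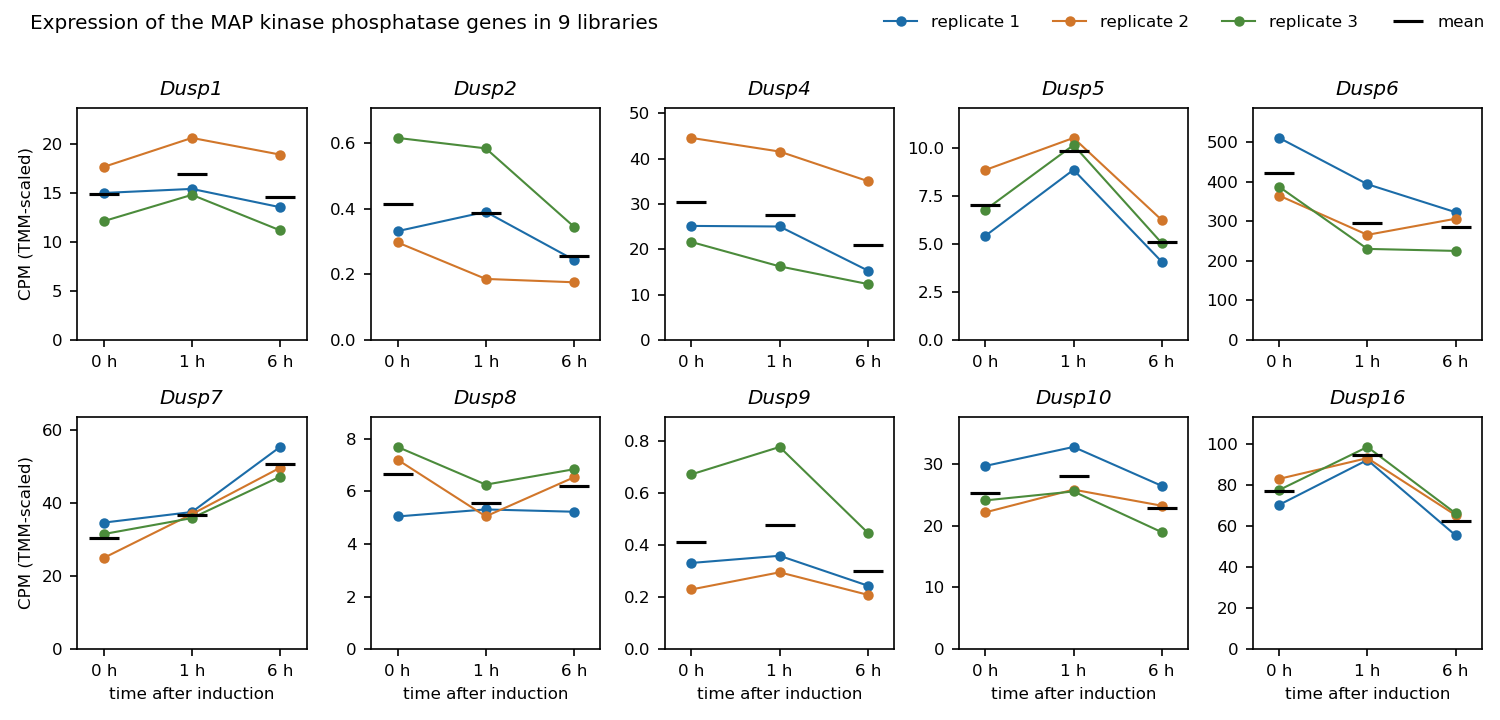
CPM (y axis, a scale of its own for each gene) of the 10 genes by time point, with a line for each replicate and a black bar for the mean of each time point. Dusp7 lies higher at each later time point in each of the replicates. Dusp1, Dusp5, Dusp9, Dusp10 and Dusp16 peak at 1 h in each of them. Dusp1, Dusp4 and Dusp5 keep replicate 2 above the others throughout.

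The libraries of a replicate number resembled each other in these genes. In 9 of the 10 genes the same replicate was the highest at every time point, where 51.2% of all tested genes showed this, and Dusp16 was the exception. The mean over time points differed between replicates by up to 2.46-fold in Dusp4, where replicate 2 was the highest, by 2.40-fold in Dusp9 and by 2.19-fold in Dusp2, where replicate 3 was the highest. In 7 genes the replicate means ranged more widely on the log2 scale than the means of the time points, where 61.7% of all tested genes did, and in Dusp5, Dusp7 and Dusp16 they ranged less widely. The difference was very small in Dusp6, with ranges of 0.56 for both. The ranges of CPM at 0 h and 1 h lay apart in 3 genes (Dusp5, Dusp7 and Dusp16), and in 8.24% of all tested genes. Those at 0 h and 6 h lay apart in 3 genes (Dusp6, Dusp7 and Dusp16), and in 25% of all tested genes. Those at 1 h and 6 h lay apart in 3 genes (Dusp5, Dusp7 and Dusp16), and in 22.2% of all tested genes.

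The genes of the ERK cascade moved in both directions with the block. Of 18 genes of the ERK cascade, from Egfr and the FGF receptors to Mapk3, 5 rose and 4 fell with the block between 0 h and 6 h (17.4% and 17.5% of all genes), and the median log2 fold change of the list was -0.042. Without the block 0 passed the test by edgeR, with 3 at an unadjusted p under 0.05 and 0 called by DESeq2. The largest of these changes with the block were the rises of Map2k1, which encodes a MEK (0.36, adjusted p = 8.4e-05 by edgeR), Mapk3, which encodes an ERK (0.31, adjusted p = 0.00247 by edgeR), and the RAF gene Braf (0.24, adjusted p = 0.0244 by edgeR). Egfr, the gene of the EGF receptor, rose by 0.21 with the block (adjusted p = 0.0392 by edgeR). At 1 h, 1 gene passed the test with the block (3.51% of all genes), the RAS activator gene Sos1, which fell by 0.31 (adjusted p = 0.0205 by edgeR). Without the block 0 did by edgeR or DESeq2, with 1 at an unadjusted p under 0.05. From 1 h to 6 h, 5 genes rose and 3 fell with the block (18% and 17.5% of all genes). The largest change was in Map2k2, the gene of the other MEK, which fell by 0.34 (adjusted p = 0.0015 by edgeR). Without the block 0 passed the test by edgeR, with 4 at an unadjusted p under 0.05 and 1 called by DESeq2.

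Of 15 tested kinase genes of the JNK, p38 and ERK5 pathways, 4 rose and 4 fell with the block between 0 h and 6 h. Of all tested genes 17.4% rose and 17.5% fell. Without the block 0 genes of the list passed the test by edgeR, with 5 at an unadjusted p under 0.05 and 3 called by DESeq2. Map3k5, which encodes a stress kinase upstream of JNK and p38, fell by 0.61 with the block (adjusted p = 0.000173 by edgeR). Mapk8, which encodes a JNK, fell by 0.33 (adjusted p = 0.000245 by edgeR), and Mapk7, the gene of ERK5, rose by 0.48 (adjusted p = 3.6e-05 by edgeR). Map3k1, another kinase gene upstream of JNK, was the gene of this list past the threshold at 1 h with the block, where it fell by 0.32 (adjusted p = 0.00797 by edgeR). Between 0 h and 6 h it rose by 0.37 (adjusted p = 0.000274 by edgeR with the block). Its mean was 35.0 ± 2.00 CPM at 1 h and 56.5 ± 3.62 CPM at 6 h. This rise of 0.69 on the log2 scale also passed the test without the block (adjusted p = 0.011 by edgeR). It was the only one of this list to do so, where 1.48% of all genes rose. From 1 h to 6 h, 3 genes of the list rose and 4 fell with the block (18% and 17.5% of all genes).

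Other genes of phosphatases and phosphatase-like proteins directed at MAP kinases also moved in both directions with the block. Of 9 such genes, 2 rose and 3 fell with the block between 0 h and 6 h (17.4% and 17.5% of all genes). By edgeR 0 passed the test without it, with 2 at an unadjusted p under 0.05 and 1 called by DESeq2. The largest changes with the block were those of 2 related tyrosine phosphatase genes, Ptpn7, which fell by 0.85 (adjusted p = 0.00374 by edgeR), and Ptpn5, which rose by 0.75 (adjusted p = 3.6e-05 by edgeR). Ptpn5 had 5.66 ± 1.71 CPM at 0 h and 9.76 ± 4.20 CPM at 6 h. Between 1 h and 6 h, 2 of the 9 genes rose and 4 fell with the block (18% and 17.5% of all genes). Of 12 tested atypical dual-specificity phosphatases, which lack the MAP kinase binding domain, 1 rose and 3 fell with the block between 0 h and 6 h. The shares of all genes were again 17.4% and 17.5%. Dusp14 (-0.57), Dusp15 (-0.43) and Dusp3 (-0.43) were lower and Dusp19 (0.28) was higher, with adjusted p-values of 0.00182, 0.00171, 4.8e-05 and 0.0486 by edgeR. Without the block 0 passed the test by edgeR, with 1 at an unadjusted p under 0.05 and 1 called by DESeq2. Compared with 1 h, 0 rose and 4 fell at 6 h with the block (18% and 17.5% of all genes).

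Among 21 genes whose transcription is known to follow ERK activity, 12 fell and 2 rose with the block between 0 h and 6 h (17.5% and 17.4% of all genes), and the median log2 fold change of the list was -0.40. Without the block 4 fell (0.955% of all genes), the immediate early transcription factor genes Egr3, Egr2 and Egr1 and the feedback inhibitor gene Spred1. With the block the largest falls were those of Egr3 (-3.82), Egr2 (-3.13), Egr1 (-1.98) and the immediate early gene Ier2 (-0.88), with adjusted p-values of 2.3e-05, 1.8e-07, 3.2e-05 and 0.000115 by edgeR. Egr3 and Egr2 were at low levels. Between 0 h and 6 h Egr3 went from 1.23 ± 0.406 to 0.0867 ± 0.0429 CPM, and Egr2 from 3.41 ± 0.786 to 0.383 ± 0.144 CPM. Those that rose were the ETS factor genes Etv4 (0.34) and Etv5 (0.27), with adjusted p-values of 0.000687 and 0.00318 by edgeR. Both are named here after their values were seen. At 1 h, Egr3 and Spry1 rose and Egr1 and Myc fell with the block (1.36% and 2.14% of all genes). Without it 0 of the 21 passed the test by edgeR, with 6 at an unadjusted p under 0.05 and 1 called by DESeq2. From 1 h to 6 h, 2 rose and 11 fell with the block (18% and 17.5% of all genes). Egr2 and Egr3 fell without it (0.663% of all genes). This list was chosen with earlier results of these data known, so its direction is not independent evidence. Whether its change differs from that of the MAP kinase phosphatase genes was not tested.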

How the data were processed

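RNA-seq was analysed in 9 libraries of SEZ NSCs, 3 for each of the 3 time points. The authors deposited raw read counts per Ensembl gene, not normalised, from reads aligned to mm10 (GRCm38), and the submitters' processing notes name STAR 2.5.3a, FastQC and DESeq2 1.22.1. GENCODE M21 gave symbols for 48058 of 48526 genes, and 31382 had at least 1 count. Members and gene lists were chosen with earlier results of these data known. A further gene of the ERK cascade list and another of the NSC markers are not reported here and are left out of their counts. Counts were tested in R 4.3.3 with edgeR 4.0.16 (filterByExpr with minimum count 10 and minimum total count 15, TMM, glmQLFit and glmQLFTest) in 1 fit of the 9 libraries, with Benjamini-Hochberg adjustment over 18858 genes. The standard error was derived from the F statistic. TPM used summed exon lengths. After subtraction of time point means, libraries with the same replicate number correlated at 0.733 to 0.800 in 9 pairs and others at -0.462 to -0.314 in 18 pairs, so the numbers, which come from the labels, pair the samples. What same-numbered libraries share is not given in the sources used here. No pair of libraries of a time point agreed within sampling noise (chi-square per gene of at least 79.9). Named genes are the 10 members and, of each other list, at most 4 genes per comparison past the threshold in either fit, by the size of their change. Etv4 and Etv5 were named outside this rule. Genes most like a member in pattern were to be named for members whose time point means differed by at least 1 on the log2 scale, and no member reached this. Alternatives were DESeq2 1.42.0, the replicate block, RLE scaling, library totals, other filters on low counts, only the 6 libraries compared, removal of GC and length trends (splines with 4 degrees of freedom), stricter thresholds and leaving out each library. Python 3.11.15 was used for tables (pandas 2.3.3, numpy 2.4.6) and for drawing (matplotlib 3.10.9).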

Additional observations from a re-analysis of the deposited data

Results flagged for a closer look

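Dusp5 was higher at 1 h (20.8% of all tested genes) and lower at 6 h (31.7%) than at 0 h in every replicate, and was flagged for this. The difference between its effects at 6 h and at 1 h was -0.94 on the log2 scale (adjusted p = 0.0681 by edgeR without the replicate block, where it missed the threshold, and -0.95 with an adjusted p of 1.0e-05 with the block). Such a difference, here and below, is the comparison of 6 h against 1 h itself and not a further test.

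Dusp9 also was higher at 1 h and lower at 6 h than at 0 h in every replicate, with a difference of -0.65 (adjusted p = 0.600 by edgeR, and 0.0607 with the block). It had between 17 and 56 counts per library, and 3 of 3 replicates in one direction occurred at 1 h in 20.8% of all tested genes (higher) and at 6 h in 31.7% (lower).

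Dusp16 had effects at 6 h and 1 h that differed by -0.60 on the log2 scale. This is its fall from 1 h to 6 h given above (adjusted p = 0.0215 by edgeR, and 5.5e-06 with the block). It was higher at 1 h (20.8% of all tested genes) and lower at 6 h (31.7%) than at 0 h in 3 of 3 replicates.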

How the results depend on the processing

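The replicate block raised the counts of members called, and it reversed no direction of a member and ended no call. At 1 h against 0 h it gave 2 higher and 1 lower (3 and 1 by DESeq2 with the block, 2 and 1 with only the 6 libraries compared and the block, 3 and 1 with GC and length trends removed and the block). At 6 h against 0 h the number lower was 4 with the block, by DESeq2 with the block and with only the 6 libraries, and 5 with the trends removed. At 6 h against 1 h these 4 fits gave 1 higher each and 5, 5, 5 and 6 lower, and DESeq2 without the block gave 1 higher and 2 lower. Without the block, the calls of Dusp7 at 6 h against 0 h and Dusp16 at 6 h against 1 h went to 0 in a fit of the 6 libraries compared, at a threshold of 0.01 for the adjusted p, or when a log2 change of 1 or more in size was required. Leaving out a library without the block gave 0 to 1 higher at 6 h against 0 h, 0 to 1 lower at 6 h against 1 h and 0 otherwise, and with the block 0 to 3 higher and 0 to 1 lower at 1 h, 1 higher and 4 to 5 lower at 6 h against 0 h, and 1 higher and 4 to 5 lower at 6 h against 1 h. In the whole table, genes called went from 8 to 661, from 456 to 6581 and from 404 to 6710 with the block, and to 72, 1503 and 1432 by DESeq2.

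Of the 864 alternative values of single members, 674 kept their direction and side of the threshold, 153 passed it newly, 16 lost it and 21 changed sign. All sign changes were of values not called and came from leaving out a library. The fits that left out a library without the block spanned -0.54 to 0.29 (Dusp2), -0.57 to 0.25 (Dusp4) and -0.33 to 0.76 (Dusp9) at 1 h, -0.27 to 0.12 (Dusp1), -0.26 to 0.018 (Dusp8) and -0.86 to 0.11 (Dusp9) at 6 h against 0 h, and -0.99 to 0.022 (Dusp4) and -0.21 to 0.20 (Dusp6) at 6 h against 1 h. With the block the signs changed at 0.044 (Dusp2 at 1 h, without 1 h replicate 2), 0.0045 and 0.0082 (Dusp1 at 6 h against 0 h) and 0.020, 0.054 and 0.065 (Dusp6 at 6 h against 1 h). Dusp2 and Dusp9 had too few counts for the filter of a mean of at least 1 CPM, and DESeq2 with the block gave them no adjusted p at 1 h. The cause of these shifts was not tested.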
